A study of Mus musculus with 4 samples.

Results

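The genes described here are 39 DNA repair genes, picked by name from a table of 24497 mouse genes and found there in full. They cover 7 branches of repair, from homologous recombination to nucleotide excision repair. RNA was sequenced from mouse acute myeloid leukaemia cells that carry NRAS and AE9a, a truncated form of the AML1-ETO fusion. They were derived from bone marrow stem cells of WT or Tet2-/- mice, and 2 libraries are labelled WT and 2 Tet2 KO. All 4 libraries share the same handling, per the labels. Culture contained SCF at 50 ng/ml, IL-3 and IL-6 at 10 ng/ml, G418 at 1 mg/ml and puromycin at 2 µg/ml. The cells were transplanted into irradiated (900 cGy) B6.SJL recipients that carry CD45.1 and were 6 to 8 weeks old, and cells with CD45.2, the donor marker, were enriched from the spleen. The labels do not state the promoter of the transgenes, the Tet2 allele or how many mice stand behind each group.

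DNA repair is divided by the kind of lesion. Breaks in both strands are joined end to end by the Ku, DNA-PKcs and ligase IV machinery, or copied from a sister chromatid by homologous recombination, which depends on BRCA1 and BRCA2 and works in S and G2 phase. Crosslinks are handled by the Fanconi anaemia proteins, mispaired bases by the MSH and PMS proteins, damaged single bases by glycosylases followed by XRCC1 and ligase III, and bulky adducts by the XP proteins. PARP1 senses strand breaks, and the kinases ATM and ATR pass the alarm to CHK2 and CHK1. TET enzymes touch this network through TDG, the glycosylase that removes some of the oxidised cytosines they make.

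Levels are given in TPM, which corrects for transcript length and sets each library to the same total, so that genes can be compared with each other. In each pair of values library 1 comes first, and "(Tet2 KO)" stands for the libraries that carry that label. A TPM is a share of the library, so fewer cells of a type and less RNA per cell cannot be told apart. The WT libraries lay apart by little more than read sampling for most genes. A robust variance, which gives little weight to extreme genes, was 1.14 times that of read sampling over 1034 genes (1.56 times in the 104 of these with the most reads), against 6.16 times over 1111 genes for the other pair. The plain variances, extreme genes included, were 2.42 and 52.2 times that of sampling. The WT libraries were counted as 1 sample, so WT values in TPM are a mean (n = 1) and Tet2 KO values a mean ± SD (n = 2). A log2 change is given ± its standard error. Tet2 itself stood at 43.5 and 43.7 TPM (WT) versus 63.7 and 68.1 TPM (Tet2 KO). TPM summed over a gene cannot check for loss of a single exon, and all directions here rest on the labels. ERCC spike-in RNAs took 4.62% to 4.66% of TPM in WT and 2.95% to 3.19% in the libraries labelled Tet2 KO.

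The makeup of the libraries differed beyond repair genes, in markers that were at 1 TPM or more in every library for 9 of 10 neutrophil, 8 of 10 macrophage and 4 of 9 dendritic cell genes. The 10 neutrophil markers summed to 1536 and 1569 TPM (WT) versus 96503 and 76003 TPM (Tet2 KO). The 10 macrophage markers summed to 2029 and 2027 TPM (WT) versus 592 and 544 TPM (Tet2 KO). Of those at 1 TPM or more in every library, Mertk and Spic lay higher in the libraries labelled Tet2 KO and the rest lower. The 9 dendritic cell markers summed to 432 and 436 TPM (WT) versus 63.8 and 44.9 TPM (Tet2 KO). Ccr7 alone was at 267 and 272 TPM (WT) versus 1.80 and 2.54 TPM (Tet2 KO). The 9 T cell and 8 B cell markers in the table each summed to less than 10 TPM in every library, and 4 and 6 of them were below 1 TPM throughout. The 10 erythroid markers, 6 of them below 1 TPM throughout, summed to 13.4 and 11.5 TPM (WT) versus 49.8 and 69.1 TPM (Tet2 KO). The 10 markers of blasts and myeloid progenitors summed to 729 and 725 TPM (WT) versus 1735 and 1710 TPM (Tet2 KO), but they went both ways. Among them Cd33 was at 144 and 141 TPM (WT) versus 644 and 404 TPM (Tet2 KO). Mpo was at 11.8 and 10.8 TPM (WT) versus 203 and 253 TPM (Tet2 KO). Ctsg was at 26.8 and 29.1 TPM (WT) versus 254 and 375 TPM (Tet2 KO), and Elane and Prtn3 lay higher too. Flt3, which is counted in the dendritic cell sum too, was at 71.0 and 69.3 TPM (WT) versus 2.63 and 2.45 TPM (Tet2 KO). Ptprc, the gene of CD45, was at 292 TPM or more throughout, Cd34 at 60.6 and 60.7 TPM (WT) versus 14.7 and 15.8 TPM (Tet2 KO), and Kit at 2.20 TPM or less. Their part in the results on repair genes was not tested.

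Most of the repair genes did not change past the threshold, and those that did pointed both ways. With limma over 11919 genes (Benjamini-Hochberg adjusted p below 0.05), 2 of the 39 were higher in the libraries labelled Tet2 KO and 6 were lower. Among all genes tested 22.1% were higher and 26.7% lower, beside 5.13% and 15.4% of the repair genes. The median WT level was 8.07 TPM for the 39 and 20.8 TPM for all genes tested. The part of level in these shares was not tested. The genes called higher were Xrcc5 and Fanca, and those called lower were Parp1, Atr, Fancl, Fancc, Parp2 and Xrcc6. The median log2 change of the 39 was 0.0035, against -0.12 for all genes tested. On raw TPM, both libraries labelled Tet2 KO lay above both WT libraries for 13 of the 39 genes (38.4% of all genes) and below them for 15 (48.7% of all genes). All 39 passed the filter of 1 TPM in 2 libraries, Xrcc5 through the libraries labelled Tet2 KO alone, so that the filter itself favoured a difference there. The standard errors of the log2 changes lay between 0.22 and 0.34 for 38 of the genes.

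The count depends on how libraries are scaled and on the spread assumed. When each library was scaled to its ERCC total, the median of all genes moved by 0.55, and 15 repair genes were higher and 1 was lower, against backgrounds of 41.5% and 12.5%. The share of higher among all calls moved from 45.2% to 76.8% over all genes, and from 25% to 93.8% over the repair genes. Parp1, Xrcc5 and Fanca kept their calls under that scaling. No repair gene passed limma's threshold when genes of low TPM were left in the fit, where 3 had an unadjusted p below 0.05. Of all genes in that fit 0.662% were called higher and 1.59% lower, and 35.2% had an unadjusted p below 0.05. Without Tet2 KO library 1 the count was 18 higher (46.2%) and 15 lower (38.5%), against 36.3% and 41.8% of all genes. Without Tet2 KO library 2 it was 7 higher (17.9%) and 16 lower (41.0%), against 33.3% and 47.6% of all genes. The spread in these fits came from the WT pair alone.

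**Figure D1:**
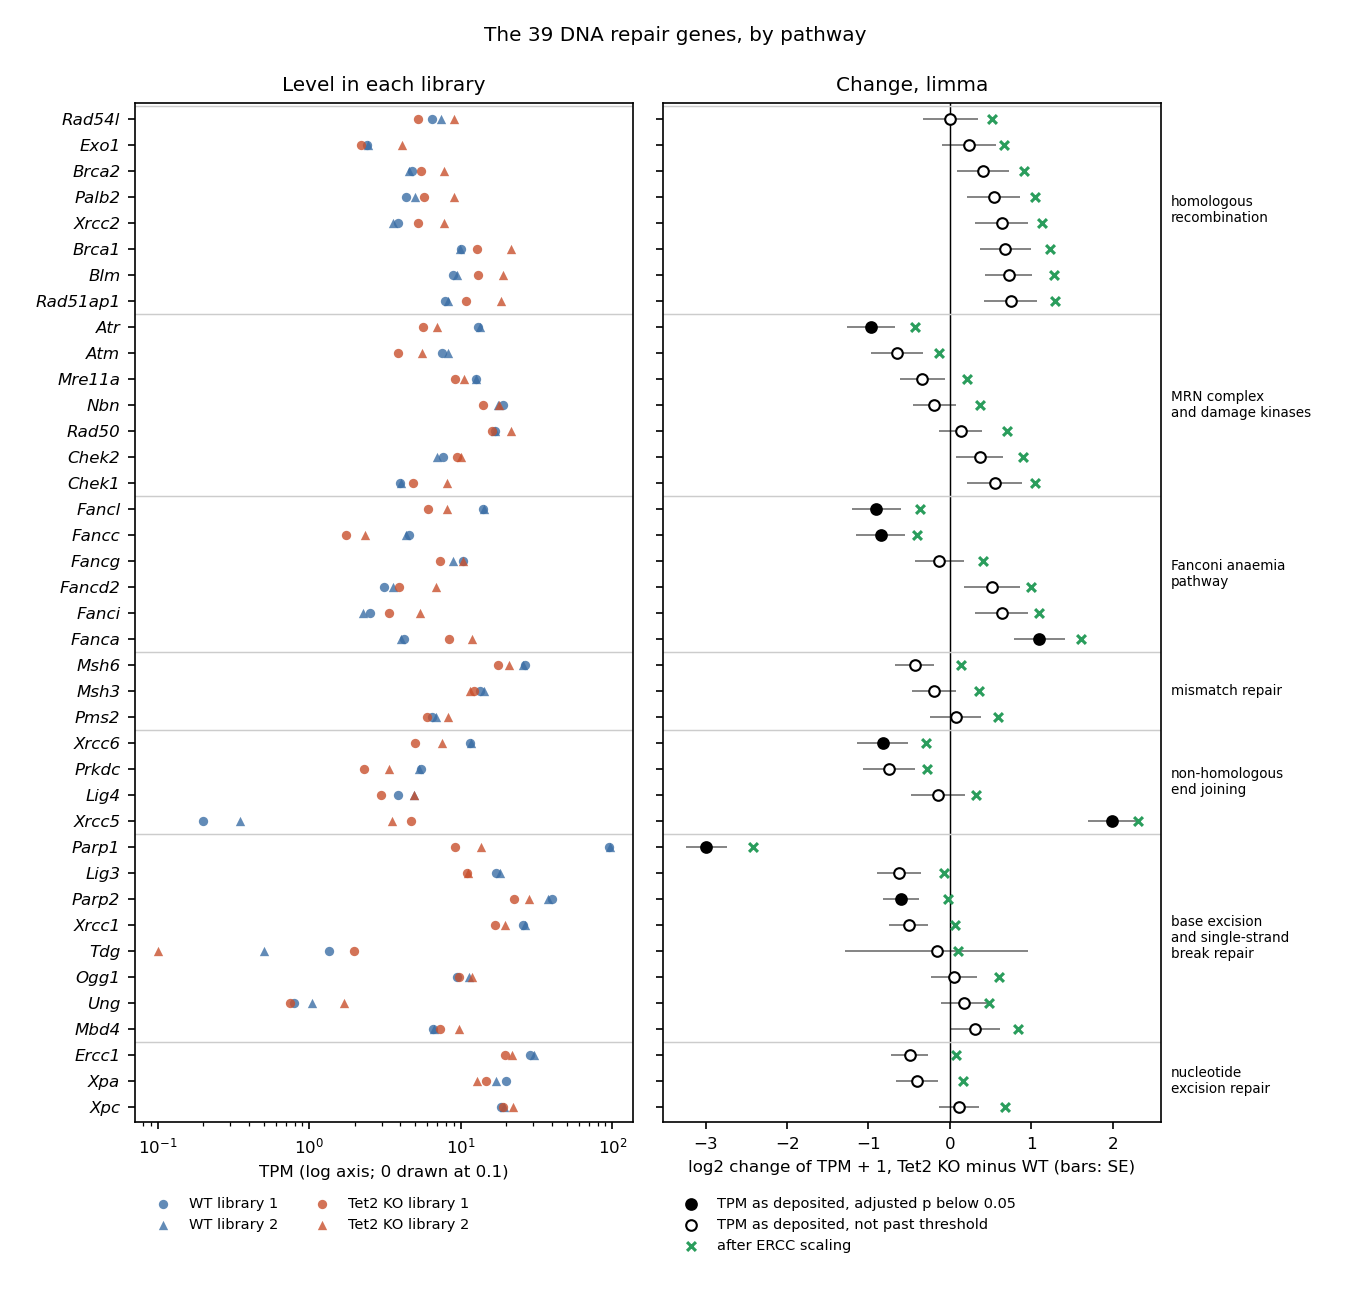
Left, TPM of each of the 39 repair genes in each library on a log axis, grouped by pathway. Right, log2 change of Tet2 KO against WT with its standard error, filled where limma's adjusted p was below 0.05, and the same change after ERCC scaling as crosses. Parp1 has the largest fall and Xrcc5 the largest rise, and the crosses lie to the right of the circles for every gene. Tdg in Tet2 KO library 2, at 0 TPM, is drawn at 0.1.

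Parp1, which encodes the main poly(ADP-ribose) polymerase of strand break repair, showed the largest change of the 39. It stood at 95.4 and 97.0 TPM (WT) versus 9.20 and 13.6 TPM (Tet2 KO). In WT it was the most abundant of the 39 genes, and the groups were far apart. The mean was 8.42-fold lower, at 96.2 TPM in WT against 11.4 ± 3.15 TPM, a log2 change of -2.99 ± 0.26 (limma adjusted p = 3.14e-07). Of the 11919 genes tested, 273 had a more negative change. With ERCC scaling the change was -2.42 (limma adjusted p = 0.000662). Parp1 lies on chromosome 1 from 180568924 to 180601254 on the plus strand (mm10), and no other annotated transcript matched it over 300 nt at 95% identity or more.

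Among its partners in single-strand break repair, Parp2 fell as well, and Xrcc1 and Lig3 lay lower without passing. Parp2, a second polymerase of this kind, stood at 39.7 and 37.6 TPM (WT) versus 22.5 and 28.2 TPM (Tet2 KO). The groups did not overlap, and its log2 change of -0.60 ± 0.22 passed (limma adjusted p = 0.0369). Parp2 lies on chromosome 14 from 50807841 to 50821301 (plus, mm10). That call was lost with ERCC scaling (log2 change -0.020), quantile normalization, median centring and without limma's abundance trend and robust estimation. The ratio of Parp1 to Parp2, added after their values were seen, was 2.40 and 2.58 in WT and 0.409 and 0.484 in the other libraries. The order of the pair was therefore reversed. Xrcc1, the scaffold that binds PARP-modified breaks, was at 25.7 and 26.4 TPM (WT) versus 16.7 and 19.5 TPM (Tet2 KO) (log2 change -0.51 ± 0.24, limma adjusted p = 0.0941). Lig3, its ligase, was at 17.1 and 18.2 TPM (WT) versus 11.0 and 11.2 TPM (Tet2 KO) (log2 change -0.62 ± 0.27, limma adjusted p = 0.0643). Neither passed, though their groups did not overlap. Lig3 shares 1826 nt of exon sequence with Rffl on the other strand, and Rffl was at 15.8 and 17.4 TPM (WT) versus 43.2 and 28.3 TPM (Tet2 KO), and no source used here says whether counting told the strands apart, so the level of Lig3 is uncertain.

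None of the 4 DNA glycosylases passed the threshold, and none had an unadjusted limma p below 0.05. Ogg1, which removes oxidised guanine, was at 9.37 and 11.3 TPM (WT) versus 9.77 and 11.8 TPM (Tet2 KO), with overlapping groups. Mbd4, which removes thymine or uracil from CpG mismatches, was at 6.52 and 6.66 TPM (WT) versus 7.25 and 9.75 TPM (Tet2 KO) (log2 change 0.31 ± 0.31, limma adjusted p = 0.421). Ung, which removes uracil, was low in all libraries, at 0.79 and 1.05 TPM (WT) versus 0.75 and 1.70 TPM (Tet2 KO). Tdg was listed at 1.35 and 0.50 TPM (WT) versus 1.96 and 0 TPM (Tet2 KO), with no order between groups and a standard error of 1.13. The level of Tdg is uncertain. A processed pseudogene, Gm9855, matches the Tdg transcript at 99.2% identity over 1194 nt, and was itself listed at 56.9 and 58.4 TPM (WT) versus 51.5 and 56.2 TPM (Tet2 KO). Added up, Tdg and Gm9855 came to 58.3 and 58.9 TPM (WT) versus 53.5 and 56.2 TPM (Tet2 KO), nearly level between groups. The sum was chosen after the values were seen, and how reads were split between the copies was not tested.

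End joining held the largest rise. Xrcc5, which encodes the Ku80 subunit of the Ku dimer that caps broken ends, was at 0.20 and 0.35 TPM (WT) versus 4.67 and 3.53 TPM (Tet2 KO). The WT values were worth about 5.20 and 8.30 reads and the others about 141 and 107 reads, estimated from the length of its single annotated transcript. The groups were well apart, and the mean was 14.9-fold higher, with a log2 change of 1.99 ± 0.29 on the log2(TPM + 1) scale, which understates changes of low genes (limma adjusted p = 3.80e-05). Xrcc5 lies on chromosome 1 from 72307421 to 72394952 on the plus strand (mm10). No other transcript of the annotation matched it over 300 nt at 95% identity or more.

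Its partner moved the opposite way. Xrcc6, which encodes Ku70, was at 11.6 and 11.7 TPM (WT) versus 4.98 and 7.51 TPM (Tet2 KO). The groups did not overlap, and the log2 change was -0.83 ± 0.32 (limma adjusted p = 0.0417). Xrcc6 lies on chromosome 15 from 81987835 to 82040085 (plus, mm10). The call was lost with ERCC scaling, quantile normalization and without limma's trend and robust estimation. Xrcc6 shares 346 nt with Desi1, itself at 18.8 and 20.6 TPM (WT) versus 11.99 and 15.5 TPM (Tet2 KO). The ratio of Xrcc6 to Xrcc5 was 57.8 and 33.5 in WT against 1.07 and 2.13. The excess of Xrcc6 over Xrcc5 RNA was thus smaller in both libraries labelled Tet2 KO, and the WT ratios rest on few Xrcc5 reads. Prkdc, the DNA-PKcs kinase recruited by Ku, was at 5.43 and 5.33 TPM (WT) versus 2.30 and 3.38 TPM (Tet2 KO) (log2 change -0.75 ± 0.32, limma adjusted p = 0.0629). Lig4, the ligase of the pathway, was at 3.86 and 4.91 TPM (WT) versus 2.99 and 4.89 TPM (Tet2 KO), with overlapping groups. Prkdc thus lay lower in both libraries labelled Tet2 KO without passing the test, and Lig4 showed no separation.

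**Figure D2:**
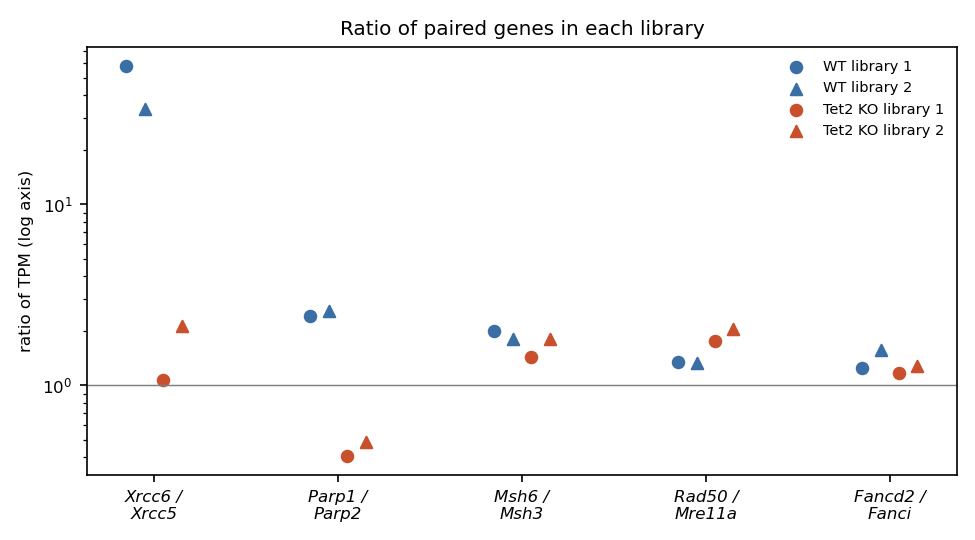
Ratio of the TPM of paired genes in each library, on a log axis, with a line at equal levels. The ratio of Xrcc6 to Xrcc5 lies at 57.8 and 33.5 in WT and at 1.07 and 2.13 in the libraries labelled Tet2 KO, and that of Parp1 to Parp2 crosses the line, while the other 3 pairs lie within 1.16 to 2.05 throughout.

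The promoters of the 3 genes with the smallest p among those called, Parp1, Xrcc5 and Fanca, are shown because these genes kept their calls under every scaling tried. The windows run from 250 bases before to 50 after the RefSeq start (GRCm38.p6), 5′ to 3′ along the gene. They are chr1:180568641-180568940 (plus) for Parp1, chr1:72307171-72307470 (plus) for Xrcc5 and chr8:123318527-123318826 (minus) for Fanca. Capitals mark matches on either strand to the GC box GGGCGG and to CCAAT. The E2F core (TTCCCGC and its variants TTCGCGC, then TTGCCGC, then TTGGCGC), the cell cycle element CHR (TTTGAA and the variant TTCGAA) and the interferon-stimulated element GAAANNGAAA were searched too and are not in these windows.
Parp1: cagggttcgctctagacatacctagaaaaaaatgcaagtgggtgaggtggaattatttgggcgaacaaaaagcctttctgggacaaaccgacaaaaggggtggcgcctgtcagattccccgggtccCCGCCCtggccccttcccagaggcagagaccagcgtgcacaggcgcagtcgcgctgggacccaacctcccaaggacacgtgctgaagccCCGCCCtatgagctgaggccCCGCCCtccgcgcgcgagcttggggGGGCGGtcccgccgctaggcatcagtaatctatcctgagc
Xrcc5: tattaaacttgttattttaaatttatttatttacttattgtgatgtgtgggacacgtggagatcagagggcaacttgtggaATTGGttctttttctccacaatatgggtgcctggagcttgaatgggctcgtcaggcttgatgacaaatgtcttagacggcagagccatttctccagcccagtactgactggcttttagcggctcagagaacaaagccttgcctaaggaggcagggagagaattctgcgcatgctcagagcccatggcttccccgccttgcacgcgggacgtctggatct
Fanca: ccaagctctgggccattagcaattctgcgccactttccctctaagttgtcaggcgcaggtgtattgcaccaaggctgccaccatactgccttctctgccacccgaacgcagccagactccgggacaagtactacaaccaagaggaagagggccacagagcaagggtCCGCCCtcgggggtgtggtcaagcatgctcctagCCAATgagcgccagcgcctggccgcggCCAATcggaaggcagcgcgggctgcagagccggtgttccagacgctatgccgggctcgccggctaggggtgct
The Parp1 window holds 4 GC boxes, 20 CpG and 62% G and C. That of Xrcc5 holds 1 CCAAT, on the minus strand, with 9 CpG and 48% G and C. That of Fanca holds 2 CCAAT, 1 GC box, 19 CpG and 63% G and C. The median of all 32851 windows is 7 CpG and 52.7% G and C. The windows of Parp1 and Fanca were thus alike in base composition, and that of Xrcc5 was poorer in CpG and in G and C. A match is a description of letters, not of a bound factor.

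In the Fanconi anaemia pathway the members moved in different directions. Fanca, a core complex subunit, was at 4.24 and 4.03 TPM (WT) versus 8.42 and 11.8 TPM (Tet2 KO). It was the only member of the pathway called higher, with no overlap of groups, 2.45-fold higher and with a log2 change of 1.10 ± 0.31 (limma adjusted p = 0.00841). Fanca lies on chromosome 8 from 123268300 to 123318576 on the minus strand (mm10). Fancl, the E3 ligase that ubiquitinates FANCD2, was at 13.9 and 14.2 TPM (WT) versus 6.11 and 8.14 TPM (Tet2 KO) (log2 change -0.90 ± 0.30, limma adjusted p = 0.0202). Fancc, another core subunit, was at 4.54 and 4.38 TPM (WT) versus 1.76 and 2.32 TPM (Tet2 KO) (log2 change -0.85 ± 0.30, limma adjusted p = 0.0273). Both of these fell, and neither call held with ERCC scaling. That of Fancc was also lost with quantile normalization. Fancl shares 466 nt of exon sequence with Vrk2 on the other strand, and Vrk2 was at 52.1 and 51.1 TPM (WT) versus 11.8 and 16.5 TPM (Tet2 KO). How many reads of the pair belong to Fancl was not tested. Fancl lies on chromosome 11 from 26386135 to 26471876 (plus) and Fancc on chromosome 13 from 63285043 to 63497278 (minus). Exons of Fanca overlap those of Zfp276 on the other strand, and exons of Fancc those of 2010111I01Rik.

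The substrate pair of the pathway lay higher without passing. Fancd2 was at 3.10 and 3.56 TPM (WT) versus 3.93 and 6.82 TPM (Tet2 KO) (log2 change 0.52 ± 0.34, limma adjusted p = 0.225). Fanci, which binds it, was at 2.50 and 2.28 TPM (WT) versus 3.38 and 5.35 TPM (Tet2 KO) (log2 change 0.64 ± 0.33, limma adjusted p = 0.120). Fanci shares 401 nt with Polg, at 25.2 and 24.1 TPM (WT) versus 32.9 and 29.9 TPM (Tet2 KO). The ratio of Fancd2 to Fanci lay between 1.16 and 1.56 in the 4 libraries. Fancg, a core subunit, was at 10.3 and 8.89 TPM (WT) versus 7.29 and 10.3 TPM (Tet2 KO), with overlapping groups.

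Among the damage kinases, Atr alone changed. Atr, the kinase that answers stalled replication forks, was at 12.9 and 13.4 TPM (WT) versus 5.64 and 6.92 TPM (Tet2 KO), a log2 change of -0.97 ± 0.30 (limma adjusted p = 0.0139). The groups did not overlap, and ERCC scaling ended the call (log2 change -0.43, limma adjusted p = 0.161). Atr lies on chromosome 9 from 95857597 to 95951781 (plus, mm10), and antisense RNAs overlap its exons. Atm, the kinase of double-strand breaks, was at 7.46 and 8.24 TPM (WT) versus 3.88 and 5.54 TPM (Tet2 KO), lower in both but not past the threshold (log2 change -0.65 ± 0.32, limma adjusted p = 0.105). Their effector kinases lay the other way. Chek1 was at 3.96 and 4.01 TPM (WT) versus 4.85 and 8.08 TPM (Tet2 KO), and Chek2 at 7.62 and 7.01 TPM (WT) versus 9.40 and 10.1 TPM (Tet2 KO) (limma adjusted p = 0.194 and 0.308).

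The MRN complex, which finds double-strand breaks and activates ATM, showed no call. Mre11a, its nuclease, was at 12.5 and 12.7 TPM (WT) versus 9.10 and 10.4 TPM (Tet2 KO) (log2 change -0.34 ± 0.28, limma adjusted p = 0.339). Rad50, its ATPase, was at 16.9 and 16.8 TPM (WT) versus 16.01 and 21.4 TPM (Tet2 KO), and Nbn at 18.9 and 17.5 TPM (WT) versus 14.1 and 17.8 TPM (Tet2 KO). The groups overlapped for both of the latter. The ratio of Rad50 to Mre11a was 1.35 and 1.32 in WT against 1.76 and 2.05.

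None of the 8 homologous recombination genes passed, yet 6 of them lay higher in both libraries labelled Tet2 KO, and 2 had an unadjusted limma p below 0.05 in that direction. Over all genes 38.4% lay higher in both libraries and 24.4% had such a p, so the 2 of 8 are near the background. Blm, a helicase that dissolves recombination intermediates, came closest, at 8.92 and 9.41 TPM (WT) versus 13.1 and 19.1 TPM (Tet2 KO) (log2 change 0.72 ± 0.29, limma adjusted p = 0.0502), and it passed under 10 of the 13 alternatives. Rad51ap1, which promotes strand invasion, was at 7.88 and 8.26 TPM (WT) versus 10.9 and 18.5 TPM (Tet2 KO) (log2 change 0.75 ± 0.32, limma adjusted p = 0.0743). Brca1 was at 9.97 and 9.94 TPM (WT) versus 12.8 and 21.4 TPM (Tet2 KO) (log2 change 0.68 ± 0.31, limma adjusted p = 0.0931). In each of these 3 genes Tet2 KO library 2 stood well above library 1, and the groups did not overlap. Xrcc2, which acts in strand exchange, was at 3.88 and 3.58 TPM (WT) versus 5.21 and 7.69 TPM (Tet2 KO) (log2 change 0.64 ± 0.32, limma adjusted p = 0.117). Palb2, which links BRCA2 to BRCA1, was at 4.34 and 4.97 TPM (WT) versus 5.72 and 9.04 TPM (Tet2 KO) (log2 change 0.54 ± 0.33, limma adjusted p = 0.190). Brca2, which loads the recombinase, was at 4.73 and 4.58 TPM (WT) versus 5.48 and 7.70 TPM (Tet2 KO) (log2 change 0.41 ± 0.32, limma adjusted p = 0.303). These 3 genes showed the same order of libraries, WT below library 1 and library 1 below library 2. Rad54l, a motor protein of strand exchange, was at 6.43 and 7.37 TPM (WT) versus 5.24 and 9.05 TPM (Tet2 KO), and Exo1, the resection nuclease, at 2.39 and 2.46 TPM (WT) versus 2.19 and 4.08 TPM (Tet2 KO). For both, the WT libraries lay between those labelled Tet2 KO. With ERCC scaling 6 of the 8 passed as higher, against 41.5% of all genes.

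Mismatch and nucleotide excision repair genes made no call, and 1 of the 6, Ercc1, had an unadjusted limma p below 0.05, against 55% of all genes (30.6% in the lower direction, as Ercc1). Msh6, which reads single mismatches, was at 26.6 and 25.7 TPM (WT) versus 17.5 and 20.9 TPM (Tet2 KO) (log2 change -0.43 ± 0.24, limma adjusted p = 0.148). Msh3, which reads longer loops, was at 13.4 and 14.2 TPM (WT) versus 12.3 and 11.6 TPM (Tet2 KO). Both lay lower in the libraries labelled Tet2 KO, and their ratio ranged from 1.43 to 1.98. Pms2, the endonuclease that acts after them, was at 6.42 and 6.91 TPM (WT) versus 6.01 and 8.26 TPM (Tet2 KO). Ercc1, a subunit of the nuclease that cuts beside an adduct, was at 28.7 and 30.4 TPM (WT) versus 19.7 and 21.8 TPM (Tet2 KO) (log2 change -0.49 ± 0.23, limma adjusted p = 0.0857). Xpa, a scaffold of the incision complex, was at 19.7 and 17.1 TPM (WT) versus 14.6 and 12.8 TPM (Tet2 KO). Xpc, the damage sensor, was at 18.5 and 19.4 TPM (WT) versus 19.0 and 22.2 TPM (Tet2 KO). Ercc1 and Xpa were lower in both libraries without passing, and the Xpc groups overlapped.

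The 39 genes were also divided by when in the cell cycle they are known to be expressed. The 13 genes known to be expressed mainly around DNA replication (Brca1, Brca2, Rad51ap1, Rad54l, Xrcc2, Blm, Exo1, Chek1, Fanca, Fancd2, Fanci, Msh6 and Ung) had a median log2 change of 0.55, and 12 of the 13 were above 0. The call among them was Fanca. The remaining 26 had a median of -0.27, with 18 below 0, 6 called lower (23.1%) and 1 called higher (3.85%). Of all 11919 genes tested, 5335 lay above 0 and 6584 below, and 22.1% were called higher and 26.7% lower. The share of the 26 called lower was thus not above the background. Relative to the median of all genes, the medians of the 13 and the 26 were 0.66 and -0.15, and 0.61 and -0.25 with ERCC scaling. Without Tet2 KO library 1 the median of the 13 was 0.87 with 12 called higher and 1 lower, against 36.3% and 41.8% of all genes. Without library 2 it was 0.23 with 5 called higher (38.5%) and 1 lower, against 33.3% and 47.6% of all genes, so the share called higher was then near the background. The difference between the divisions was not tested.

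The libraries labelled Tet2 KO did not give the same level of repair genes. Library 2 was above library 1 for 35 of the 39 genes, against 65.2% of all genes. The median difference was 0.40 on the log2(TPM + 1) scale for the 39 and 0.63 for the 13 replication-linked genes, of which 13 were higher in library 2, against 0.099 for all genes. Between the WT libraries the median difference over the 39 was 0.027. In library 1 the replication-linked genes had a median of 0.23 above the WT mean, and in library 2 of 0.87. The neutrophil marker sum was the higher in library 1, at 96503 TPM against 76003 TPM, and its part in this difference was not tested.

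Genes of DNA replication and mitosis were examined beside them. Of 20 mitosis genes 16 rose (80%) and 0 fell, with a median log2 change of 1.09. Of 20 replication genes 3 rose (15%) and 0 fell, with a median of 0.35. Among all genes tested 22.1% rose and 26.7% fell, so the share of replication genes that rose was below the background. At an unadjusted limma p below 0.05, 1 of the 40 was lower, against 30.6% of all genes. Ccnb2, a mitotic cyclin, was at 14.7 and 13.2 TPM (WT) versus 49.6 and 66.8 TPM (Tet2 KO) (limma adjusted p = 4.23e-06), and Cdt1, which licenses origins, at 30.8 and 25.7 TPM (WT) versus 87.5 and 91.5 TPM (Tet2 KO) (limma adjusted p = 2.87e-06). Without Tet2 KO library 1, 33 of the 40 rose and 3 fell, against 36.3% and 41.8% of all genes, and without library 2, 23 rose and 7 fell, against 33.3% and 47.6%. All 40 genes were higher in Tet2 KO library 2 than in library 1 on raw TPM. Replication-linked repair genes, with a median of 0.55, lay between the replication and the mitosis genes.

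**Figure D3:**
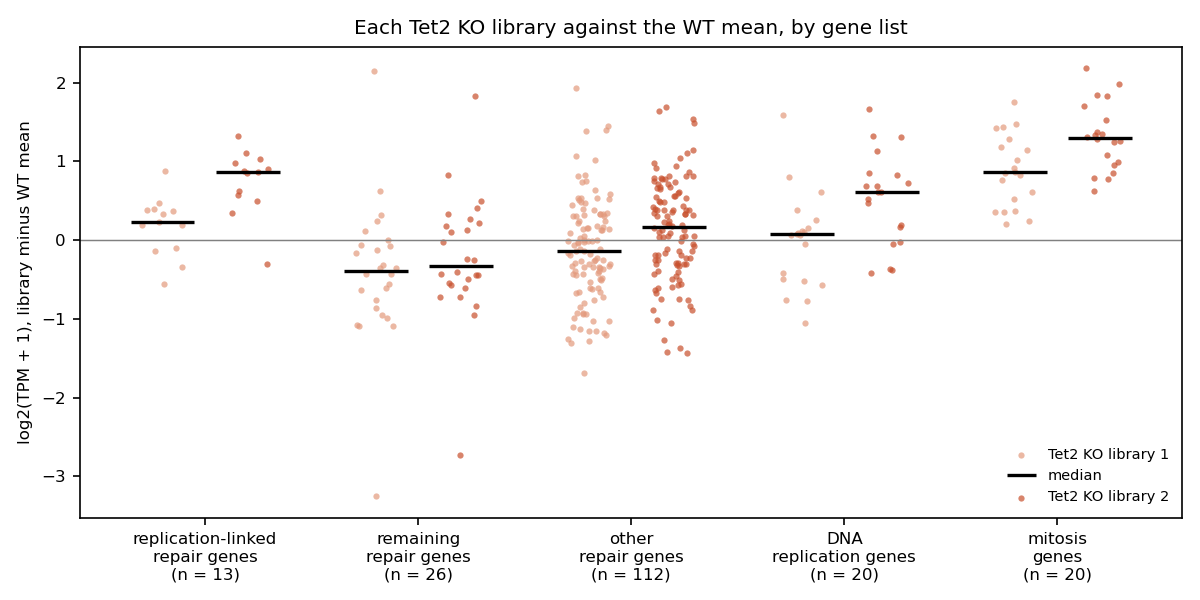
Log2(TPM + 1) of each library labelled Tet2 KO minus the WT mean, for 5 gene lists; each point is a gene and bars are medians. The medians of the replication-linked repair genes are 0.23 and 0.87 in libraries 1 and 2, those of the remaining 26 lie below 0 in both libraries, and the mitosis genes lie highest.

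Of 115 other repair genes listed by pathway, 112 were tested, and 15 were higher and 17 lower in the libraries labelled Tet2 KO. These are 13.4% and 15.2% of those tested, against 22.1% and 26.7% of all genes, and the median log2 change was 0.020. Their median WT level was 12.9 TPM, against 20.8 TPM for all genes tested. Without Tet2 KO library 1 the counts were 50 (44.6%) and 33 (29.5%), against 36.3% and 41.8% of all genes. Without library 2 they were 29 (25.9%) and 50 (44.6%), against 33.3% and 47.6%. Translesion synthesis, in which tolerant polymerases copy past damage, together with direct reversal, held the most rises, 5 of 11 tested genes with 2 falls. Polk, a polymerase for bulky lesions, was at 11.8 and 11.9 TPM (WT) versus 32.5 and 35.0 TPM (Tet2 KO) (log2 change 1.44 ± 0.23, limma adjusted p = 7.50e-05). Rev3l, the catalytic subunit of polymerase zeta, was at 8.50 and 9.35 TPM (WT) versus 25.2 and 28.0 TPM (Tet2 KO) (log2 change 1.47 ± 0.24, limma adjusted p = 0.000123). Its accessory subunit moved the other way, with Mad2l2 at 21.3 and 22.0 TPM (WT) versus 8.45 and 7.50 TPM (Tet2 KO) (log2 change -1.34 ± 0.28, limma adjusted p = 0.000908). The subunits of 1 polymerase thus changed in opposite directions, each with groups well apart, and all 3 genes passed with ERCC scaling as well.

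The other branches had fewer calls, beside 22.1% higher and 26.7% lower among all genes tested. In end joining, Xrcc4, the partner of ligase IV, fell from a WT mean of 7.56 TPM to 2.51 ± 0.290 TPM (limma adjusted p = 0.00273), and Poll, a gap-filling polymerase, from 7.72 to 2.85 ± 0.488 TPM (limma adjusted p = 0.00536). Of 9 end joining genes 3 fell. In base excision repair Neil3, a glycosylase, rose from 8.78 to 28.2 ± 3.29 TPM (limma adjusted p = 6.99e-05). Polb, the gap-filling polymerase, fell from 56.3 to 26.5 ± 1.23 TPM (limma adjusted p = 0.000484) and Apex1, the abasic site endonuclease, from 41.9 to 21.5 ± 4.14 TPM (limma adjusted p = 0.00355). That branch had 1 rise and 4 falls among 15 tested genes, so its falls were near the background.

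In nucleotide excision repair 1 of 18 genes rose and 5 fell. Among all genes tested 22.1% rose and 26.7% fell, so the falls in this branch were near the background. Subunits of TFIIH, the complex that opens DNA at the lesion and also serves transcription, were on both sides. Gtf2h2 fell from 29.2 to 9.29 ± 1.25 TPM (limma adjusted p = 0.000181) and Gtf2h1 rose from 48.4 to 97.4 ± 1.88 TPM (limma adjusted p = 0.000437). Among other Fanconi genes 3 of 10 rose and 0 fell, led by Usp1, which removes ubiquitin from FANCD2, and its cofactor Wdr48, with log2 changes of 0.63 ± 0.19 and 0.57 ± 0.19 (limma adjusted p = 0.0125 and 0.0218), and the nuclease scaffold Slx4 at 0.61 ± 0.21 (limma adjusted p = 0.0273). An unadjusted limma p below 0.05 was found for 1 Fanconi gene in the lower direction, against 30.6% of all genes. Atrip, the partner that ATR needs for activity, fell from 14.5 to 7.09 ± 1.63 TPM (limma adjusted p = 0.0165), as Atr did. H2afx, the histone that is phosphorylated at breaks, rose from 51.6 to 95.2 ± 27.9 TPM (limma adjusted p = 0.0166). In homologous recombination 3 of 29 rose and 2 fell, with Rmi1, a partner of BLM, at 0.80 ± 0.23, Shfm1, a partner of BRCA2, at 0.77 ± 0.25 and Rpa1, which coats single-stranded DNA, at -0.70 ± 0.22 (limma adjusted p = 0.00828, 0.0170 and 0.0198). The 4 other mismatch repair genes made no call, with 0 at an unadjusted limma p below 0.05, against 55% of all genes. With ERCC scaling the falls of Poll, Apex1, Atrip and Rpa1 did not pass.

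**Figure D4:**
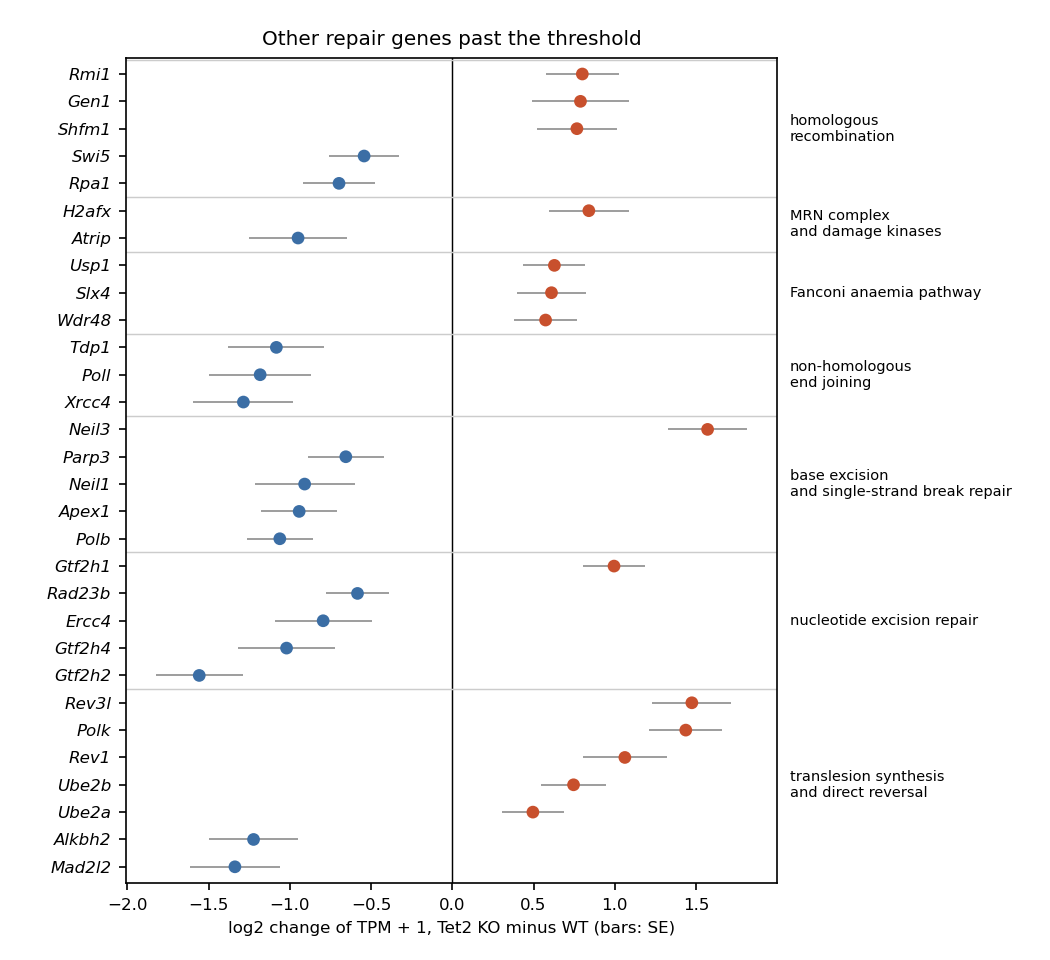
Log2 change of Tet2 KO against WT with its standard error for other repair genes past the threshold, by pathway. Rises are in red and falls in blue. Homologous recombination, the damage kinase group, translesion synthesis, base excision and nucleotide excision repair each hold genes on both sides of 0.

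Promoter motifs of the repair genes were counted as well. RefSeq windows were at hand for 32 of the 39 genes, all but Xrcc2, Exo1, Rad50, Nbn, Fancd2, Prkdc and Xpc. The E2F core was in 16 of the 32 (50%), against 9.57% of all windows, and in 7 of the 10 replication-linked genes with a window. CCAAT was in 19 (59.4%, against 37.4%) and the GC box in 19 (59.4%, against 35.7%). The CHR was in 1 (3.12%, against 19.2%) and the interferon-stimulated element in 4 (12.5%, against 3.44%). Matches to the E2F core and the GC box can overlap in a window. The background was every window, not matched in base composition, and the part of composition in these contrasts was not tested. Of the 8 repair genes called, the E2F core was in the window of 1, Xrcc6.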

How the data were processed

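The authors deposited TPM values per gene for 4 libraries. Per the submitters' processing notes the tools were STAR and RSEM, with mm10 as genome. Their versions, the gene annotation and the use of strand are not given in the sources used here. Values of each library sum to 1000000 over 24589 rows, 92 of them ERCC spike-ins, which were left out of all fits. TPM does not state depth. From low values of single-transcript genes of 600 to 2500 nt, 1 read was worth 0.0775 to 0.0993 TPM at an effective length of 1000 nt (77.3% to 81.9% of values within 0.2 of a whole read). Read numbers estimated this way carry counting error only.

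Log2(TPM + 1) was fitted with limma 3.58.1 in R 4.3.3 (abundance trend, robust, Benjamini-Hochberg over 11919 genes with at least 1 TPM in at least 2 libraries, two-sided, threshold 0.05). The mean of the WT libraries entered as 1 sample against 2 Tet2 KO libraries, leaving 1 residual degree of freedom, so the WT sample is assumed to vary as the others do. The labels do not say that replicates are separate animals, so a p-value reflects the scatter of these libraries alone, and that scatter may be technical. The fit was tested on simulated data with a spread modelled on the Tet2 KO pair. Log2 changes of 0.5 were called in the right direction in 5.8% of 500 cases. The share was 83.2% for changes of 1 and 98.2% for changes of 2, and 0 of 117190 unchanged cases were called. Changes near 0.5 can thus be missed, so a gene that did not pass is not shown to be unchanged. The simulation held far fewer changed genes than were called here, so the real shares may differ. The 39 genes and all lists were chosen with earlier results of these data known. All 39 could be named; of the other repair genes at most 3 called per pathway with the smallest p were, and at most 2 each of the replication and mitosis genes. Some called genes are not reported here by name or plotted. Coordinates are from GENCODE M21, promoters from RefSeq, both on the mm10 assembly, counted from 1; all 39 genes matched GENCODE. Near copies were searched with 95% identity over 300 nt. The 13 alternatives covered scaling, filter, pseudocount, variance model, replicates and the replicate number as a block.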

Additional observations from a re-analysis of the deposited data

How the results depend on the processing

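The 8 called repair genes kept their direction under every one of the 13 alternatives in which they were tested (Xrcc5 and Fancc had no value with a filter of 5 TPM). No filter on low values ended all 8 calls, and ERCC scaling ended those of Atr, Fancc, Fancl, Xrcc6 and Parp2. Why the calls ended without a filter was not tested, beyond the larger number of low genes in that fit. ERCC scaling multiplies each library by 1 factor and raised the log2 change of every one of the 39. Those of the genes that lost their calls then lay between -0.43 (Atr) and -0.020 (Parp2). Why the ERCC shares differ between the groups was not tested. Numbers below are calls higher and lower. Without a filter they were 123 and 295 over all genes and 0 and 0 over the repair genes, the other repair genes and the higher calls of replication and mitosis genes. With ERCC scaling they were 4942 and 1492, 15 and 1, 47 and 5, with 33 replication and mitosis genes higher. The median of the repair genes was then 0.48 and that of the replication-linked ones 1.04. With both WT libraries as samples, 5 repair genes (12.8%) were higher and 13 (33.3%) lower, against 29.5% and 37.9% of all genes. In that fit 30 other repair genes (26.8%) and 3 replication and mitosis genes (7.5%) were lower. Median centring gave 4 repair genes higher (10.3%, against 24.0% of all genes). Quantile normalization gave 3 lower (7.69%, against 21.4% of all genes).

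The titles share replicate numbers, but the deviations of same-numbered libraries did not go together (r = -0.011 across 11919 genes, which are not independent). With the replicate number as a block and both WT libraries as samples, 9 repair genes (23.1%) were higher and 13 (33.3%) lower. Among all genes 29.3% were higher and 37.4% lower in that fit. Of the other repair genes 29 (25.9%) were higher and 29 (25.9%) lower, and 3 replication and mitosis genes (7.5%) were lower.

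Leaving out 1 library at a time gave 2651 to 4321 genes higher and 3192 to 5674 lower. It gave 2 to 18 repair genes higher and 6 to 16 lower, 14 to 50 and 17 to 50 other repair genes, and 19 to 33 and 0 to 7 replication and mitosis genes. The upper ends came from leaving out a Tet2 KO library, which takes both WT libraries as samples.

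The repair genes whose direction turned under any setting were all uncalled as reported, and none passed after turning. With ERCC scaling these were Mre11a (0.21), Nbn (0.37), Fancg (0.41), Msh3 (0.36), Msh6 (0.14), Lig4 (0.33), Tdg (0.094), Xrcc1 (0.065), Ercc1 (0.080) and Xpa (0.16). Quantile normalization turned Fancg (0.039) and Lig4 (0.013), and a pseudocount of 0.1 turned Rad54l (-0.0020). Leaving out 1 library turned others, whose log2 changes then spanned -0.34 to 0.35 (Rad54l), -0.10 to 0.57 (Exo1), -0.067 to 0.33 (Rad50), -0.35 to 0.10 (Fancg), -0.13 to 0.27 (Pms2), -0.43 to 0.14 (Lig4), -0.13 to 0.50 (Ung), -0.91 to 0.66 (Tdg) and -0.067 to 0.18 (Ogg1). Low levels limit Ung, Tdg and the WT values of Xrcc5.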

Other observations

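The chromosomal neighbours of Parp1 and Xrcc5, the 3 nearest tested genes on each side, were looked at after the values of both were seen. Around Parp1, the log2 changes were -0.48 for Coq8a, -0.44 for Psen2, -0.60 for Itpkb, -0.76 for Lin9, 0.44 for Acbd3 and 0.42 for H3f3a, all far smaller than the -2.99 of Parp1. Lin9, a subunit of the DREAM complex that controls cell cycle genes, and Itpkb passed the threshold (limma adjusted p = 0.0363 and 0.0162).

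Around Xrcc5, Fn1, which encodes fibronectin, was at 11.3 and 11.0 TPM (WT) versus 135 and 114 TPM (Tet2 KO), a log2 change of 3.36 ± 0.19 (limma adjusted p = 1.13e-09). Mreg, which encodes melanoregulin, was at 2.00 and 2.30 TPM (WT) versus 118 and 79.3 TPM (Tet2 KO), a log2 change of 4.96 ± 0.25 (limma adjusted p = 1.15e-08). Pecr, which lies between Mreg and Xrcc5, was at 1.84 TPM or less in every library. On the other side, Smarcal1, Rpl37a and Tns1 had log2 changes of -0.58, -0.66 and -0.07 and did not pass. The rises thus stood on 1 side of Xrcc5 with a gene between that did not pass.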
